A study of Danio rerio with 24 samples.

Results

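A set of 9 genes of veins, lymphatic vessels and scavenger endothelium was followed through sorted zebrafish cells: stab1, stab2, mrc1a, lyve1b, ephb4a, nr2f2, nr2f1a, dab2 and prox1a. They were chosen by name, and all 9 were found among the 25067 genes of the deposited table and were among the 20970 genes that passed a filter on low values. The libraries hold poly(A) RNA of cells sorted from fish with a pair of transgenes: kdrl:mCherry labels endothelium, and CD41:GFP labels thrombocytes together with hematopoietic stem and progenitor cells (HSPC). Endothelial cells (EC), HSPC and double negative cells (DN, titled NC) came from embryonic tails at 36 hours post fertilization (hpf) and at 3 and 4 days post fertilization (dpf). DN cells also came from tails at 52 hpf, and HSPC and DN cells from kidney marrow of CD41:GFP fish at 3 months post fertilization (mpf). Only CD41:GFP is named for the kidney fish, so kidney DN cells could be selected by lack of GFP alone. Endothelial cells were then not sorted out of them by kdrl:mCherry. Each of these 12 groups has 2 libraries, 24 in all. No EC or HSPC library of 52 hpf is among these 24. Titles name the caudal hematopoietic tissue from 52 hpf on and not at 36 hpf, so a difference of dissection cannot be told apart from a difference of stage there.

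In zebrafish, the caudal vein and its plexus house newly born blood stem cells, and part of the venous and lymphatic endothelium takes up waste molecules from the blood and tissue fluid. The receptors of that uptake include the stabilins, encoded by stab1 and stab2, which bind hyaluronan and many other ligands. Others are the mannose receptor encoded by mrc1a and the hyaluronan receptor encoded by lyve1b. The gene dab2 encodes a clathrin adaptor of endocytosis and is grouped with the uptake genes here. Whether it serves these receptors was not tested. Venous identity is linked to the orphan nuclear receptors encoded by nr2f2 and nr2f1a and to ephb4a, the receptor for the arterial ligand ephrin-B2, and lymphatic identity to the homeobox factor gene prox1a. These factors are not confined to vessels: nr2f1a, nr2f2 and prox1a are also known from neural tissue.

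Values are given as FPKM (fragments per kilobase of gene, scaled to library size), replicate 1 first, n = 2 per group. Log2 fold changes are differences of log2(FPKM + 1), with ± their standard error from limma, and a gene is called where the adjusted p over all 20970 genes tested lies under 0.05 and the change is at least 1 in size. The pseudocount understates changes of genes at low FPKM. Whether replicates came from separate clutches or sorting runs is not in the labels, so the p-values speak for the variation among these libraries alone, and that variation may be technical. Because whole populations were measured, fewer cells of a type and less RNA per cell cannot be told apart.

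In some libraries the RNA of kdrl and itga2b, the fish's own genes after which the transgenes are named, did not follow the labels. Recovered read numbers ran from 1741360 to 21338170 per library, and replicate 2 of EC and of HSPC at 4 dpf had only 2483 and 11265 genes above 0, against 13274 to 23100 in the others. Both were left out of the fit, and no comparison was made with the 4 dpf EC or HSPC groups. kdrl was at 5.16 and 3.68 FPKM in EC at 36 hpf but at 0.333 and 0.323 FPKM in the EC-labelled libraries at 3 dpf. The gene of CD41 itself, itga2b, was listed at 0 in both EC libraries of 36 hpf and reached 6.55 and 5.72 FPKM in those of 3 dpf. cdh5, the endothelial cadherin gene, went from 6.19 and 4.10 FPKM in EC at 36 hpf to 0.157 and 0.378 FPKM in the EC label at 3 dpf. Of the 36 hpf HSPC libraries, replicate 1 held 0.428 FPKM of itga2b and replicate 2 held 0. Each direction drawn from these libraries is therefore one between labels.

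The 9 genes fell into 2 patterns across the sorts. The 5 genes of uptake (stab1, stab2, mrc1a, lyve1b and dab2) each had their highest group mean in EC at 36 hpf, although for dab2 and lyve1b that group overlapped the next, which was kidney HSPC for dab2 and EC at 3 dpf for lyve1b. The receptor gene ephb4a and the factor gene prox1a were highest in DN at 36 hpf, and nr2f2 and nr2f1a in DN at 3 dpf. How many of all genes have their highest mean in these groups was not counted. This order is therefore a description of the 9 genes alone. The uptake genes made up 35.9% and 33.2% of the summed FPKM of the 9 genes in EC at 36 hpf. The share was 24.2% and 25.5% in HSPC and 1.05% in each DN library of that stage. At 3 dpf their share was 52.8% and 38.1% in EC-labelled libraries, 81.9% and 45.7% in HSPC and 0.648% and 0.577% in DN. In these HSPC libraries dab2 gave 6.75 of 7.45 and 9.0 of 9.35 FPKM of the uptake genes, so the receptor genes had little part in that share. The summed FPKM of the uptake genes in the EC label was 79.8 and 49.7 at 36 hpf and 12.4 and 12.9 at 3 dpf. The higher share at 3 dpf thus came with a lower sum. Kidney DN libraries had an uptake share of 81.6% and 55.6%, of which dab2 gave 7.56 of 9.12 and 13.4 of 21.0 FPKM.

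**Figure D1:**
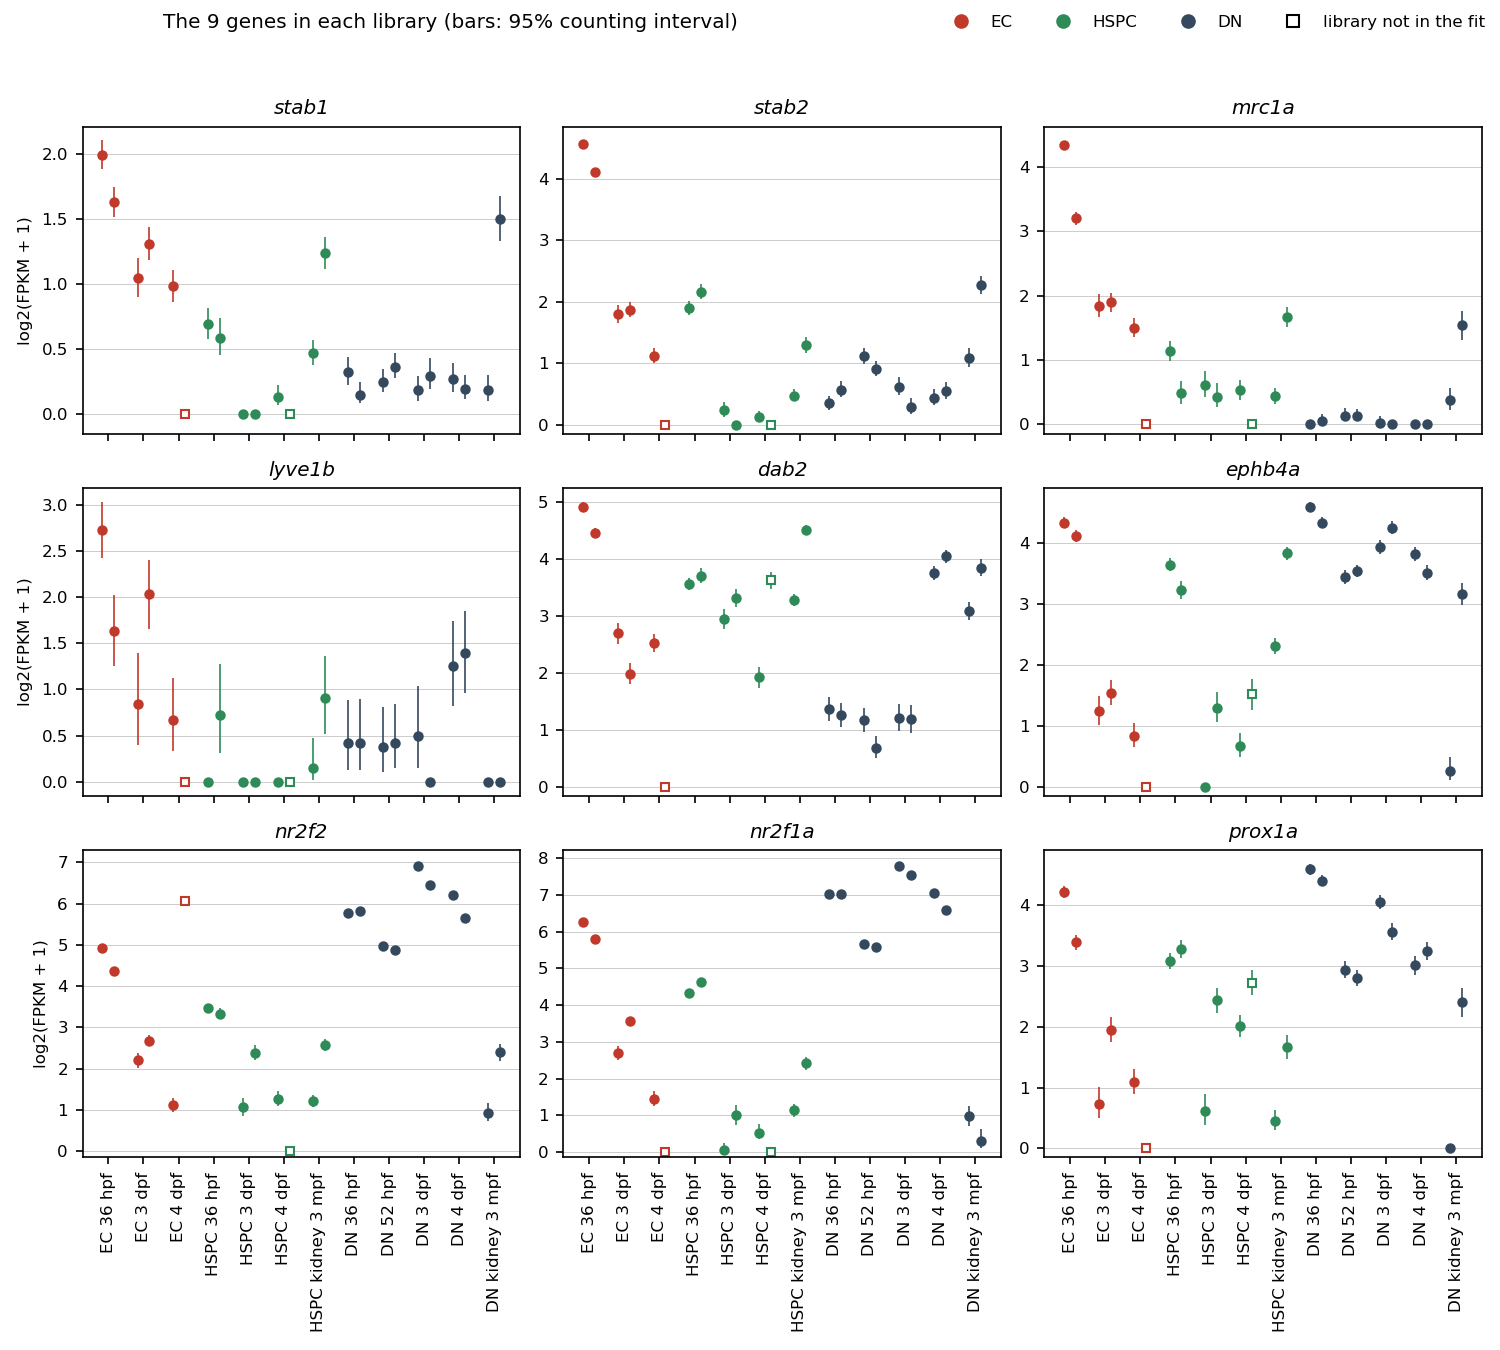
The 9 genes in every library. Each panel is 1 gene, the vertical axis is log2(FPKM + 1), groups stand along the horizontal axis (EC red, HSPC green, DN dark blue), each point is 1 library, bars are 95% Poisson intervals of its recovered reads, and open squares are the 2 libraries left out of the fit. Points without any read carry no bar, which does not make them exact. stab1, stab2 and mrc1a stand highest in EC at 36 hpf, for example stab2 at 22.7 and 16.3 FPKM, dab2 and lyve1b overlap another group there, and nr2f1a stands highest in DN at 3 dpf, at 221.6 and 185.8 FPKM.

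stab2 was the uptake receptor gene with the highest level. It was at 22.7 and 16.3 FPKM in EC at 36 hpf, 2.74 and 3.50 FPKM in HSPC and 0.275 and 0.483 FPKM in DN, so the 3 sorts of that stage did not overlap. At 3 dpf the level was 2.49 and 2.66 FPKM in EC-labelled libraries, 0.176 and 0 FPKM in HSPC and 0.538 and 0.223 FPKM in DN. DN libraries of 52 hpf held 1.17 and 0.877 FPKM and those of 4 dpf 0.360 and 0.459 FPKM. Kidney HSPC libraries held 0.388 and 1.45 FPKM of stab2, kidney DN libraries held 1.13 and 3.84 FPKM, and the ranges of the sorts overlapped. In order of the group means EC at 36 hpf came first and HSPC at 36 hpf second, and from EC at 3 dpf (2.57 FPKM) down to DN at 36 hpf (0.379 FPKM) each group overlapped the next.

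Its relative stab1 reached lower levels. It was at 2.98 and 2.10 FPKM in EC at 36 hpf, 0.613 and 0.503 FPKM in HSPC and 0.252 and 0.111 FPKM in DN. By 3 dpf the EC-labelled libraries held 1.06 and 1.48 FPKM and DN 0.136 and 0.229 FPKM, and both HSPC libraries were listed at 0. The highest value outside the EC label was 1.83 FPKM, in replicate 2 of kidney DN, whose replicate 1 held 0.136 FPKM. The ratio of stab2 to stab1 within a library was 7.64 and 7.79 in EC at 36 hpf and 4.46 and 6.95 in HSPC at 36 hpf. In EC-labelled libraries at 3 dpf that ratio was 2.35 and 1.80, and in kidney HSPC it was 1.01 and 1.07. The excess of stab2 over stab1 was thus larger at 36 hpf than at 3 dpf in the EC label. The highest ratio of any library, 8.33 in replicate 1 of kidney DN, rests on 13 reads of stab1.

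mrc1a was at 19.2 and 8.20 FPKM in EC at 36 hpf, 1.2 and 0.396 FPKM in HSPC and 0 and 0.0417 FPKM in DN, the last being 3 reads. Levels at 3 dpf were 2.60 and 2.72 FPKM in EC-labelled libraries, 0.528 and 0.348 FPKM in HSPC and 0.0171 and 0 FPKM in DN. It was listed at 0 in both DN libraries at 4 dpf, and no tail DN library exceeded 0.0978 FPKM. mrc1a was thus nearly absent from the double negative sorts of the tail, where each of the other uptake genes was measured in most libraries. Kidney HSPC libraries held 0.352 and 2.18 FPKM of it and kidney DN libraries 0.293 and 1.91 FPKM. The other mannose receptor copy, mrc1b, had another order: 1.22 and 1.04 FPKM in EC at 36 hpf, 1.17 and 6.46 FPKM in EC-labelled libraries at 3 dpf and 32.0 and 10.7 FPKM in kidney HSPC.

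lyve1b had the fewest reads of the 9 genes and is the least precise. It was at 5.62 and 2.11 FPKM in EC at 36 hpf, from 67 and 27 reads, and at 0.333 and 0.336 FPKM in DN, from 4 reads each. HSPC libraries of that stage held 0 and 0.652 FPKM. At 3 dpf the EC-labelled libraries held 0.794 and 3.09 FPKM, DN held 0.412 and 0 FPKM, and both HSPC libraries were listed at 0. It was the 1 uptake receptor gene above 1 FPKM in DN libraries at 4 dpf, at 1.39 and 1.63 FPKM from 14 and 17 reads. Its other copy, lyve1a, stayed between 0 and 3.24 FPKM in all libraries, and was highest in replicate 1 of kidney DN.

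dab2, the adaptor gene, was spread over more sorts than the receptors. It was at 29.3 and 21.0 FPKM in EC at 36 hpf, 10.8 and 12.1 FPKM in HSPC and 1.57 and 1.41 FPKM in DN. At 3 dpf dab2 stood at 5.49 and 2.98 FPKM in EC-labelled libraries, 6.75 and 9.0 FPKM in HSPC and 1.32 and 1.29 FPKM in DN. DN libraries of 4 dpf held 12.6 and 15.6 FPKM, and kidney marrow 8.76 and 21.9 FPKM in HSPC and 7.56 and 13.4 FPKM in DN. The HSPC libraries of 3 dpf, in which stab1 and lyve1b were at 0, held more dab2 than those labelled EC in both replicates, by a difference of 0.79 ± 0.41 on the log2 scale that did not pass. The ratio of dab2 to stab2 was 1.29 and 1.28 in EC at 36 hpf and 35.0 and 33.9 in DN at 4 dpf.

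ephb4a was at 19.0 and 16.3 FPKM in EC at 36 hpf, 11.5 and 8.33 FPKM in HSPC and 22.9 and 19.1 FPKM in DN. The 3 dpf levels were 1.37 and 1.91 FPKM in EC-labelled libraries, 0 and 1.46 FPKM in HSPC and 14.2 and 18.0 FPKM in DN. EC and DN were thus neighbours at 36 hpf and far apart at 3 dpf. In the kidney the replicates differed more than the sorts, with 3.96 and 13.2 FPKM in HSPC and 0.190 and 7.94 FPKM in DN. Its other copy, ephb4b, was at 24.9 and 26.6 FPKM in EC and 19.7 and 22.7 FPKM in DN at 36 hpf, and at 5.73 and 2.58 FPKM and 6.72 and 9.38 FPKM at 3 dpf. The arterial ligand gene efnb2a was at 12.3 and 11.9 FPKM in EC and 11.7 and 14.5 FPKM in DN at 36 hpf.

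nr2f2 was at 29.3 and 19.5 FPKM in EC at 36 hpf, 10.1 and 9.09 FPKM in HSPC and 54.0 and 55.6 FPKM in DN. At 3 dpf nr2f2 stood at 3.61 and 5.41 FPKM in EC-labelled libraries, 1.09 and 4.25 FPKM in HSPC and 119.4 and 85.7 FPKM in DN. The DN level was 30.3 and 28.5 FPKM at 52 hpf and 73.4 and 48.9 FPKM at 4 dpf, and in kidney marrow neither sort exceeded 4.96 FPKM. All DN libraries of the tail were above every fitted EC library of 3 and 4 dpf.

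nr2f1a had the highest level of the 9 genes. It was at 76.4 and 54.7 FPKM in EC at 36 hpf, 19.2 and 23.8 FPKM in HSPC and 128.7 and 129.5 FPKM in DN. At 3 dpf nr2f1a stood at 5.48 and 10.8 FPKM in EC-labelled libraries, 0.0339 and 0.995 FPKM in HSPC and 221.6 and 185.8 FPKM in DN. DN libraries held 49.3 and 47.2 FPKM at 52 hpf and 130.7 and 95.5 FPKM at 4 dpf, but 0.955 and 0.234 FPKM in the kidney. Its order of groups was the most separated of the 9 genes, with EC at 36 hpf, DN at 52 hpf, HSPC at 36 hpf and EC at 3 dpf each clear of the next. The ratio of nr2f1a to nr2f2 was 2.61 and 2.81 in EC at 36 hpf and lay between 1.63 and 2.38 in the DN libraries of the tail, so the pair kept a similar balance there. It was 0.234 in replicate 2 of HSPC at 3 dpf and 0.899 and 0.869 in kidney HSPC.

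prox1a was at 17.6 and 9.52 FPKM in EC at 36 hpf, at 7.46 and 8.76 FPKM in HSPC and 23.1 and 20.2 FPKM in DN. At 3 dpf prox1a stood at 0.664 and 2.88 FPKM in EC-labelled libraries, 0.527 and 4.41 FPKM in HSPC and 15.7 and 10.8 FPKM in DN. The ranges of EC and HSPC overlapped at 3 dpf. Its other copy, prox1b, was at 1.17 and 1.35 FPKM in EC and 1.65 and 1.40 FPKM in DN at 36 hpf.

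EC were compared with DN libraries at 36 hpf, the stage at which the EC-labelled libraries held kdrl and cdh5. All 5 uptake genes were higher in EC and none of the 9 genes was called lower by limma on all 22 libraries, where 11.2% of all genes were called, 6.42% higher and 4.75% lower. These 1347 higher and 997 lower genes became 1360 and 1536 with median-of-ratios scaling. The median log2 change of the 9 genes was 1.57, against 0.08 over all genes tested. By limma, stab2 was higher by 3.88 ± 0.41 (adjusted p = 2.9e-05), mrc1a by 3.74 ± 0.46 (adjusted p = 0.00015) and dab2 by 3.37 ± 0.41 (adjusted p = 0.00013). lyve1b was higher by 1.76 ± 0.43 (limma, adjusted p = 0.0144) and stab1 by 1.57 ± 0.37 (limma, adjusted p = 0.0125). The other 4 genes did not pass: nr2f2 was at -1.16 ± 0.52, nr2f1a at -0.99 ± 0.42, prox1a at -0.69 ± 0.70 and ephb4a at -0.24 ± 0.69. nr2f2 was called lower in EC with only the groups compared (-1.16), by limma-voom (-1.2) and without the kidney libraries (-1.16), and nr2f1a by limma-voom (-1.0). The count of 5 was 3 without replicate 1 of EC, without replicate 1 of DN or without replicate 2 of DN. stab1 lost its call in each of these (1.39 to 1.66) and also without replicate 2 of EC (1.75), and lyve1b in each of the 3 (1.22, 1.76 and 1.77). lyve1b was also not called with a pseudocount of 0.1 (3.03) or by limma-voom on recovered reads (3.2).

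Lists of related genes were read against the same shares of all genes, 6.42% higher and 4.75% lower. Of 26 lymphatic genes, 21 were tested, 4 were higher in EC at 36 hpf and none was lower. These were the transcription factor gene sox18 (2.98 ± 0.65), the VEGF-C receptor gene flt4 (2.18 ± 0.34), the receptor gene tie1 (1.60 ± 0.41) and tbx1 (1.23 ± 0.32). flt4 was at 5.55 and 3.09 FPKM in EC and 0 and 0.310 FPKM in DN. Among 15 tested genes of venous and arterial identity, 1 was higher, the apelin receptor gene aplnra (2.61 ± 0.65), a count near the share of all genes. Of 25 genes of endocytosis and lysosomes, 8 were higher and 1 was lower. The median change was 0.15 for the lymphatic list, 0.15 for the venous and arterial list and 0.57 for the endocytosis list, against 0.08 over all genes. The 4 largest changes were those of cubn (2.38 ± 0.49) and amn (2.29 ± 0.46), which encode the cubilin uptake complex, the adaptor gene ldlrap1a (2.22 ± 0.67) and the receptor gene il13ra2 (2.0 ± 0.56).

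Markers of other cells moved in the same comparison. Of 24 tested endothelial markers 14 were higher and 1 was lower in EC at 36 hpf, led by egfl7 (3.64 ± 0.42). Of 15 kidney tubule markers 9 were higher, led by cdh17 (5.64 ± 0.71), which stood at 105.1 and 178.1 FPKM in EC, 70.5 and 78.8 FPKM in HSPC and 1.39 and 2.21 FPKM in DN. dab2, cubn, amn and lrp2a are also genes of the kidney tubule, and the last 3 stand in both the tubule and the endocytosis list. The summed FPKM of the 15 tubule markers was 467.3 and 668.6 in EC, 415.2 and 474.2 in HSPC and 187.1 and 178.8 in DN of this stage. In DN the genes of largest change, cdh17, atp1a1a.4, slc12a3 and slc4a4a, each lay between 0.625 and 2.22 FPKM. The DN sum thus came mostly from other genes of the list. Of 20 macrophage markers 5 were higher, with a summed FPKM of 61.0 and 81.5 in EC against 17.8 and 21.8 in DN. Of 12 neutrophil markers 8 were higher, with a summed FPKM of 2468 and 3919 in EC against 305.5 and 367.1 in DN. Erythroid markers were higher in 7 of 11, fibroblast markers in 4 of 15 with 1 lower, and muscle and thrombocyte markers in 1 of 16 and 1 of 9. Neural markers were lower in 7 of 16, with a summed FPKM of 1088 and 944.9 in EC against 2533 and 2349 in DN, and by limma 0 of 16 epidermal markers were called. The part of these cells in the levels of the 9 genes was not tested.

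**Figure D2:**
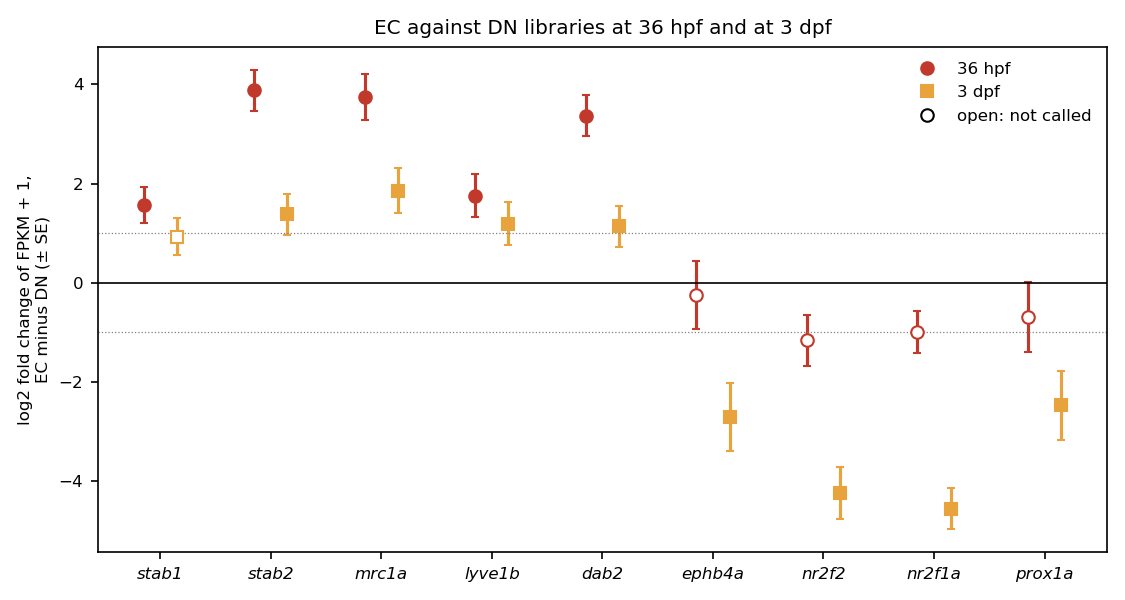
EC against DN libraries for the 9 genes. The vertical axis is the log2 fold change of FPKM + 1 with bars of ± 1 standard error, circles are 36 hpf and squares 3 dpf, filled where called, and dotted lines mark a change of 1 in either direction. stab2 stands at 3.88 and 1.38, while nr2f1a stands at -0.99 and -4.55.

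At 3 dpf the 9 genes split by role. In EC-labelled libraries 4 uptake genes were higher than in DN, and ephb4a, nr2f2, nr2f1a and prox1a were lower, where 38.9% of all genes were called, 15.2% higher and 23.7% lower. The median log2 change was 0.93 for the 9 genes and -0.16 over all genes tested. By limma, mrc1a was higher by 1.86 ± 0.46 (adjusted p = 0.00388), stab2 by 1.38 ± 0.41 (adjusted p = 0.0116), lyve1b by 1.19 ± 0.43 (adjusted p = 0.0344) and dab2 by 1.14 ± 0.41 (adjusted p = 0.0355). stab1 was at 0.93 ± 0.37 and did not pass, but was called by limma-voom (2.82). mrc1a, at or near 0 in DN, was at 7.45 by limma-voom. Among the lower genes nr2f1a was at -4.55 ± 0.42 (limma, adjusted p = 7.9e-07), nr2f2 at -4.23 ± 0.52 (limma, adjusted p = 7.6e-06), ephb4a at -2.70 ± 0.69 (limma, adjusted p = 0.00451) and prox1a at -2.47 ± 0.70 (limma, adjusted p = 0.00886). Without replicate 2 of DN the count of 8 was 5, with stab2 at 1.22, lyve1b at 0.94 and dab2 at 1.13 not called. Without replicate 1 of DN dab2 (1.15) and prox1a (-2.22) lost their calls, without replicate 1 of EC dab2 (0.79) and prox1a (-1.86), and without replicate 2 of EC stab2 (1.35) and lyve1b (0.59). With median-of-ratios scaling dab2 was at 0.99 and was not called, nor was it with all 24 libraries (1.14) or by limma-voom (1.57). With a pseudocount of 0.1 ephb4a (-3.23) and prox1a (-3.12) were not called, and by limma-voom lyve1b (3.39) was not.

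In the lists of related genes the counts stood near the shares of all genes called, 15.2% higher and 23.7% lower. Of 21 lymphatic genes 2 were higher and 6 lower in EC-labelled libraries at 3 dpf, among them angpt1, a TIE receptor ligand gene (3.79 ± 0.66), the VEGF-C co-receptor gene nrp2b (-3.13 ± 0.34), mafba (-1.96 ± 0.32) and calcrla (-1.93 ± 0.61). Of 15 venous and arterial genes 2 were higher and 5 lower, including the arterial genes dll4 (-2.81 ± 0.44) and efnb2a (-2.65 ± 0.42). Of 25 endocytosis genes 4 were higher and 5 lower, including the adaptor gene dab1a (-3.47 ± 0.37). The list medians were -0.22, -0.67 and -0.01, against -0.16 over all genes.

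The cell type markers differed from those of 36 hpf. All 12 neutrophil markers, 14 of 20 macrophage markers and 8 of 9 thrombocyte markers were higher in EC-labelled libraries, and 14 of 16 neural and 11 of 16 epidermal markers were lower. The summed macrophage FPKM was 164.1 and 180.2 in EC-labelled libraries, 116.4 and 104.3 in HSPC and 11.9 and 54.5 in DN. marco, a macrophage scavenger receptor gene, was at 9.57 and 11.1 FPKM in EC-labelled libraries and listed at 0 in both HSPC libraries. Endothelial markers were higher in 7 and lower in 2 of 24, with fli1a at 4.36 ± 0.41, a gene that HSPC libraries also held at 48.6 and 33.8 FPKM. egfl7 was at 0.286 and 0.722 FPKM and pecam1 at 1.52 and 0.865 FPKM. Summed neural FPKM was 137.8 and 231.9 in EC-labelled libraries, 7.59 and 19.9 in HSPC and 3744 and 3542 in DN. Erythroid markers were higher in 5 of 11, kidney tubule markers higher in 1 and lower in 2 of 15, fibroblast markers higher in 1 and lower in 6 of 15, and by limma 0 of 16 muscle markers were called. Their part in the levels of the 9 genes was not tested.

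The change of the EC to DN difference between the stages was tested as an interaction. It was called for 4 of the 9 genes, where 16.2% of all genes were called, and in each the difference EC minus DN was larger, or less negative, at 36 hpf. By limma it was 3.56 ± 0.60 for nr2f1a (adjusted p = 0.00217), 3.07 ± 0.73 for nr2f2 (adjusted p = 0.0118), 2.50 ± 0.58 for stab2 (adjusted p = 0.0103) and 2.23 ± 0.58 for dab2 (adjusted p = 0.0186). The remaining genes did not pass, with ephb4a at 2.46 ± 0.97, mrc1a at 1.88 ± 0.66, prox1a at 1.77 ± 0.99, stab1 at 0.64 ± 0.53 and lyve1b at 0.58 ± 0.60. The median was 2.23 for the 9 genes and 0.31 over all genes, and 11.7% of all genes were called in this direction and 4.54% in the other. Without replicate 1 of EC at 36 hpf the count was 2, since nr2f2 (2.79) and dab2 (2.0) lost their calls. nr2f2 also lost its call without replicate 1 of EC at 3 dpf (2.83). dab2 did so without either DN library of 36 hpf (2.28 and 2.18), replicate 2 of EC at 3 dpf (1.88) or replicate 1 of DN at 3 dpf (2.22), and mrc1a gained a call without replicate 2 of EC at 36 hpf (2.45) and with median-of-ratios scaling (1.96). mrc1a, ephb4a and prox1a were also called with only the groups compared, at the values above, and mrc1a and ephb4a without the kidney libraries. nr2f2 and dab2 lost their calls with all 24 libraries, and stab2 (2.84) and dab2 (2.47) by limma-voom. With a pseudocount of 0.1 none of the 9 genes was called, with the 4 named genes at 2.4 to 3.71 (6 of the 9 had an unadjusted p under 0.05 by limma with a pseudocount of 1, and limma-voom called 2). In the main fit 13 of 16 neural and 11 of 15 kidney tubule markers were called in the direction of the 4 genes. Endothelial markers were called in that direction in 7 and in the other in 2 of 24. Macrophage, neutrophil and thrombocyte markers were called in the other direction alone, in 1 of 20, 2 of 12 and 4 of 9. The part of these cells was not tested.

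Within the EC label, 7 of the 9 genes were lower at 3 dpf than at 36 hpf and none was higher, where 24.5% of all genes were called, 17.4% lower and 7.12% higher. The comparison shares its EC libraries with the contrasts against DN above. By limma the log2 change was -2.91 ± 0.42 for nr2f1a (adjusted p = 0.00013), -2.83 ± 0.69 for ephb4a (adjusted p = 0.00609), -2.51 ± 0.41 for stab2 (adjusted p = 0.00032) and -2.46 ± 0.70 for prox1a (adjusted p = 0.0153). It was -2.34 ± 0.41 for dab2, -2.20 ± 0.52 for nr2f2 and -1.90 ± 0.46 for mrc1a (limma, adjusted p = 0.00059, 0.00472 and 0.00626). stab1 (-0.64 ± 0.37) and lyve1b (-0.74 ± 0.43) did not pass. Of 24 endothelial markers 14 were lower and 2 higher, 11 of 15 venous and arterial genes were lower, and 8 of 21 lymphatic genes were lower and 1 was higher. Of 25 endocytosis genes 4 were lower, among them lrp2a (-3.57 ± 0.40), cubn (-3.11 ± 0.49), amn (-2.48 ± 0.46) and ctsla (-1.95 ± 0.34). Muscle and epidermal markers were lower in 16 of 16 each, kidney tubule markers in 14 of 15, neural markers in 12 of 16 and fibroblast markers in 8 of 15, while macrophage, neutrophil and thrombocyte markers were higher in 7 of 20, 8 of 12 and 6 of 9, and erythroid markers in 2 of 11 with 3 lower. The part of these cells was not tested. Without replicate 1 of EC at 36 hpf 4 of the 9 genes were called, and nr2f2 (-1.92), mrc1a (-1.33) and prox1a (-2.05) were not. Without replicate 1 of EC at 3 dpf nr2f2 (-1.96) and prox1a (-1.85) were not called. With a pseudocount of 0.1 mrc1a (-2.2), ephb4a (-3.37) and prox1a (-3.11) lost their calls, as did prox1a by limma-voom (-3.11) and nr2f2 with all 24 libraries (-2.20).

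HSPC libraries were compared with EC libraries at the same stages. At 36 hpf 3 uptake receptor genes were lower in HSPC, where 3.33% of all genes were called, 1.4% higher and 1.94% lower. By limma mrc1a was at -2.96 ± 0.46 (adjusted p = 0.00211), stab2 at -2.31 ± 0.41 (adjusted p = 0.00498) and lyve1b at -1.82 ± 0.43 (adjusted p = 0.0268). dab2 was at -1.05 ± 0.41 and did not pass. The count was 7 with only the groups compared and also without the kidney libraries. Of the markers, 12 of 24 endothelial, 9 of 11 erythroid, 4 of 16 neural and 2 of 12 neutrophil genes were lower in HSPC, and their part was not tested. Over all genes the median shift in this comparison was -0.16 as deposited and 0.00 with median-of-ratios scaling, which turned 293 higher and 406 lower genes into 498 and 321. Without replicate 1 of EC none of the 9 genes was called (7 of them had an unadjusted p under 0.05 by limma with all libraries, and limma-voom called 3). In that setting mrc1a was at -2.39, stab2 at -2.08 and lyve1b at -1.27. The count was 1 without either HSPC library, with stab2 at -2.17 and lyve1b at -1.46 not called without replicate 1, and mrc1a at -2.63 and lyve1b at -2.18 not called without replicate 2. None of the 3 was called with a pseudocount of 0.1 (-3.98 to -2.6), and lyve1b was not by limma-voom (-4.43). At 3 dpf nr2f1a (-2.60 ± 0.42, limma, adjusted p = 0.00125) and stab2 (-1.72 ± 0.41, limma, adjusted p = 0.0174) were lower in HSPC, where 6.66% of all genes were called, 0.553% higher and 6.1% lower. Lower in the same comparison were 11 of 16 muscle, 10 of 16 neural, 9 of 20 macrophage, 7 of 11 erythroid and 5 of 12 neutrophil markers and 2 of 24 endothelial markers, whose part was not tested. stab2 lost its call without either EC library (-1.75 and -1.69) or without replicate 2 of HSPC (-1.6). The count was 1 without replicate 2 of either sort, and neither gene was called with all 24 libraries or with only the groups compared. The count was 4 with a pseudocount of 0.1 or by limma-voom and 5 without the kidney libraries.

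Against DN libraries, HSPC held more dab2 at both stages and less nr2f1a and nr2f2, which are also genes of neural tissue. At 36 hpf 4 of the 9 genes were called, 2 in each direction, where 20.4% of all genes were called, 8.25% higher and 12.1% lower. By limma dab2 was higher by 2.32 ± 0.41 (adjusted p = 0.00117) and stab2 by 1.58 ± 0.41 (adjusted p = 0.0115), and nr2f1a was at -2.54 ± 0.42 (adjusted p = 0.00078) and nr2f2 at -2.40 ± 0.52 (adjusted p = 0.00391). In the same comparison 11 of 15 kidney tubule markers were higher and 1 was lower, 12 of 16 neural markers were lower, and neutrophil and macrophage markers were higher in 6 of 12 and 5 of 20. Of 24 endothelial markers 2 were higher and 4 lower, with a median change of 0.19. stab2 was not called without replicate 2 of HSPC (1.44) or without either DN library (1.47 and 1.68), and nr2f2 and dab2 were not called with all 24 libraries. At 3 dpf 5 were called, where 45.4% of all genes were called, 14.1% higher and 31.3% lower. dab2 was the 1 gene called higher, by 1.93 ± 0.41 (limma, adjusted p = 0.00095), a count near the share of all genes. nr2f1a was at -7.15 ± 0.42, nr2f2 at -4.95 ± 0.52, ephb4a at -3.44 ± 0.69 and prox1a at -2.29 ± 0.70 (limma, adjusted p from 2.9e-09 to 0.0121). Neural and epidermal markers were lower in 16 of 16 each and muscle markers in 15 of 16, kidney tubule markers were higher in 1 and lower in 4 of 15, and neutrophil and thrombocyte markers were higher in 8 of 12 and 7 of 9. Endothelial markers were higher in 6 and lower in 3 of 24. The part of these cells at either stage was not tested. prox1a lost its call without replicate 1 of HSPC (-1.38) or of DN (-2.04), with a pseudocount of 0.1 (-2.97) or with only the groups compared, and dab2 lost its call with all 24 libraries. The median of all genes in this comparison was -0.41, against -0.34 for the 9 genes.

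Between 36 hpf and 3 dpf 4 of the 9 genes fell within the HSPC label, where 37.5% of all genes were called, 11.7% higher and 25.9% lower. The count called in either direction thus stood near the share of all genes. By limma nr2f1a was at -3.96 ± 0.42 (adjusted p = 2.6e-06), ephb4a at -2.78 ± 0.69 (adjusted p = 0.00412), stab2 at -1.92 ± 0.41 (adjusted p = 0.00135) and nr2f2 at -1.67 ± 0.52 (adjusted p = 0.0161). dab2 was at -0.50 ± 0.41 and did not pass. Summed epidermal FPKM was 19270 and 20630 at 36 hpf and 221.7 and 213.6 at 3 dpf, and summed neural FPKM 549.0 and 564.2 against 7.59 and 19.9, with 14 of 15 kidney tubule and 16 of 16 muscle markers lower, so HSPC libraries of 36 hpf held transcripts of other tissues, whose part was not tested. Of 24 endothelial markers 4 were higher and 4 lower at 3 dpf, and their part was not tested. The all-gene median was -0.31 as deposited and -0.44 with median-of-ratios scaling. Without replicate 1 of HSPC at 3 dpf the count was 2, with ephb4a at -2.13 and nr2f2 at -1.01 not called, and nr2f2 also lost its call without either library of 36 hpf (-1.61 and -1.74), with all 24 libraries or with only the groups compared.

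The DN sort was followed through all 4 tail stages. From 36 to 52 hpf nr2f1a alone of the 9 genes passed, at -1.40 ± 0.42 (limma, adjusted p = 0.0434), where 10.5% of all genes were called, 4.78% higher and 5.72% lower, and it lost that call when any of the 4 libraries was left out (-1.43 to -1.37) and with median-of-ratios scaling (-1.26), no filter, a pseudocount of 0.1 or all 24 libraries. From 52 hpf to 3 dpf nr2f1a rose by 2.05 ± 0.42 (limma, adjusted p = 0.0018) and nr2f2 by 1.75 ± 0.52 (limma, adjusted p = 0.0164), where 28.7% of all genes were called, 18% higher and 10.7% lower. nr2f2 lost its call without either library of 52 hpf (1.79 and 1.71) or without replicate 1 of 3 dpf (1.51), and the count was then 1. With a pseudocount of 0.1 neither gene was called (2.07 and 1.78), and with all 24 libraries nr2f2 was not. Summed neural FPKM in these libraries went from 2533 and 2349 to 961.2 and 939.0 and then to 3744 and 3542 FPKM, while erythroid markers summed to 96590 and 89660 FPKM at 52 hpf and to between 4483 and 9000 FPKM at the neighbouring stages. nr2f1a and the neural markers were thus lowest at the same stage. Fibroblast, neutrophil and thrombocyte markers were higher in 10 of 15, 8 of 12 and 5 of 9 at 52 than at 36 hpf. They were lower in 9 of 15, 10 of 12 and 6 of 9 at 3 dpf than at 52 hpf. The part of these cells was not tested, and the counts among the 9 genes stood near the shares of all genes.

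dab2 was the 1 gene of the 9 called between 3 and 4 dpf in DN. It went from 1.32 and 1.29 FPKM to 12.6 and 15.6 FPKM, a change of 2.70 ± 0.41 (limma, adjusted p = 0.00727), where 1.45% of all genes were called, 1.23% higher and 0.224% lower. Without replicate 2 of 4 dpf the change was 2.56 and was not called, and the count was 0 in that setting (2 of the 9 genes had an unadjusted p under 0.05 by limma with all libraries, and limma-voom called 0). It was also not called with all 24 libraries or by limma-voom (3.41). lyve1b was at 1.08 ± 0.43 in the same direction and did not pass. Of 24 endothelial markers 1 was higher. kdrl was at 0.257 and 0.387 FPKM at 3 dpf and 0.772 and 0.478 FPKM at 4 dpf, and cdh5 was at 0 in both libraries and then at 0.138 and 0 FPKM. Of 15 kidney tubule markers 2 were higher, cubn was at 0.496 and 0.231 and then 1.5 and 4.72 FPKM, amn at 1.52 and 1.1 and then 2.72 and 7.55 FPKM, and lrp2a at 0.828 and 0.538 and then 0.456 and 0.260 FPKM. Muscle markers were higher in 12 of 16. The part of these cells was not tested. With median-of-ratios scaling the 257 higher and 47 lower genes of this comparison became 194 and 95.

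In kidney marrow at 3 mpf, by limma 0 of the 9 genes were called between HSPC and DN, where 21.4% of all genes were called, 13.5% higher and 7.95% lower. Of the 9 genes, 1 had an unadjusted p under 0.05 and limma-voom called 0. The largest changes were ephb4a at 1.36 ± 0.69 and nr2f1a at 1.14 ± 0.42, and replicate 2 was above replicate 1 for all 9 genes in HSPC and for 7 in DN. That order was not particular to the 9 genes. The median-of-ratios factors of whole libraries were 1.25 and 1.52 in HSPC and 0.74 and 1.14 in DN. Leaving out replicate 1 of HSPC or replicate 2 of DN gave 1 call each and leaving out replicate 1 of DN gave 2, and the all-gene median moved from 0.30 to -0.05 with median-of-ratios scaling, which turned 2823 higher and 1667 lower genes into 1115 and 2519. Kidney DN were also set beside DN of 4 dpf tails, where tissue, age, genotype and the reporters sorted on differ together and cannot be told apart. There 6 of the 9 genes were called, 5 lower and 1 higher, where 43.4% of all genes were called, 24.7% lower and 18.7% higher. nr2f1a was at -6.18 ± 0.42, nr2f2 at -4.26 ± 0.52, ephb4a at -1.95 ± 0.69 and prox1a at -1.93 ± 0.70, and stab2 was higher by 1.19 ± 0.41 (limma, adjusted p from 1.1e-08 to 0.032). lyve1b was called lower and was listed at 0 in both kidney DN libraries. Neural and epidermal markers were lower in 15 of 16 each and muscle markers in 14 of 16, macrophage markers were higher in 15 of 20, endothelial markers were higher in 3 and lower in 1 of 24, and their part was not tested. Without either DN library of 4 dpf the count was 2. ephb4a (-0.50) and prox1a (-0.73) were not called without replicate 1 of kidney DN, nor stab2 (0.60) without replicate 2. By limma-voom ephb4a was at -3.46 and prox1a at -4.99. ephb4a, prox1a and stab2 also lost their calls with only the groups compared, stab2 by limma-voom (2.18), ephb4a and prox1a with all 24 libraries, ephb4a with a pseudocount of 0.1 (-2.94) and prox1a with no filter.

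**Figure D3:**
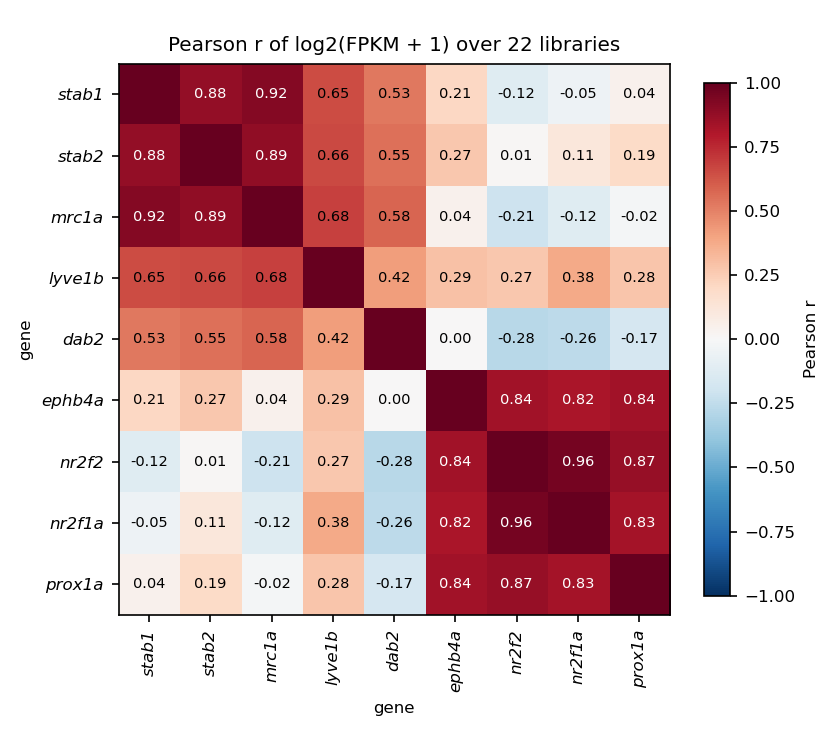
Correlation among the 9 genes. Each cell is the Pearson r of log2(FPKM + 1) over the 22 fitted libraries, from blue (negative) to red (positive). stab1, stab2 and mrc1a form one block with r from 0.88 to 0.92, and ephb4a, nr2f2, nr2f1a and prox1a another with r from 0.82 to 0.96.

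Across the 22 fitted libraries the receptors of uptake and the genes ephb4a, nr2f2, nr2f1a and prox1a varied as separate blocks. These correlations are descriptions: the libraries share groups, stages and sorts. stab1, stab2 and mrc1a had a Pearson r of 0.88 to 0.92 with each other, and lyve1b an r of 0.65 to 0.68 with each of them. nr2f2 and nr2f1a had an r of 0.96, and ephb4a an r of 0.82 to 0.84 with nr2f2, nr2f1a and prox1a. dab2 had an r of 0.42 to 0.58 with the uptake receptor genes and of -0.28 with nr2f2. Between the 5 uptake genes and the other 4 the values ran from -0.28 to 0.38, the highest for lyve1b and nr2f1a.

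The genes most like each of the 9 were named by the same r from 16283 genes with a group mean of at least 5 FPKM. stab1 and lyve1b did not reach that level and could not be named, although mrc1a and stab1 had an r of 0.918. For mrc1a they were the endothelial adhesion genes pecam1 (0.933) and cdh5 (0.893) and then stab2 (0.890). stab1 was most like mrc1a (0.918), pecam1 (0.898) and stab2 (0.880), and stab2 most like si:dkey-245p14.4 (0.910), bcl6b (0.898) and mrc1a (0.890). nr2f1a was most like rtn1a (0.988), si:dkey-175g6.2 (0.987) and clstn1 (0.985), and nr2f2 most like vopp1 (0.986), pcdh10b (0.981) and evx2 (0.979). ephb4a was most like nxn (0.970), ptprfb (0.969) and igsf9b (0.964), and prox1a most like tfap2a (0.931), hoxb3a (0.929) and pou3f3a (0.927). The genes nearest to dab2 were less close, ccbl1 (0.792), gnpda1 (0.790) and slc25a25a (0.783), as were those nearest to lyve1b, vsg1 (0.803), sncga (0.759) and fmo5 (0.734).

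stab2, nr2f1a and dab2 were each set beside a marker list, chosen with earlier results of these data known, as a description. The mean log2(FPKM + 1) of the endothelial markers was 3.57 and 3.16 in EC at 36 hpf and lay between 1.25 and 2.48 in the other fitted libraries, so stab2 and these markers set the same 2 libraries apart. Below these the order differed. HSPC at 36 hpf, next in stab2, had endothelial means of 1.80 and 1.56, against 1.61 and 1.79 in DN of that stage. The neural mean was lowest in HSPC at 3 dpf (0.46 and 0.80) and highest in DN at 3 dpf (6.67 and 6.60), the groups in which nr2f1a was near its lowest and at its highest. The kidney tubule mean was 4.48 and 4.93 in EC and 4.31 and 4.56 in HSPC at 36 hpf, 0.85 and 0.96 in HSPC at 3 dpf and 2.80 and 3.07 in DN at 4 dpf. dab2 did not keep that order: HSPC libraries of 3 dpf held it at 6.75 and 9.0 FPKM with the lowest tubule means. The list mean does not tell which of its genes were present, and in DN at 3 dpf pax8 and pax2a made up most of the tubule sum. The part of tubule cells in the dab2 level was not tested.

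**Figure D4:**
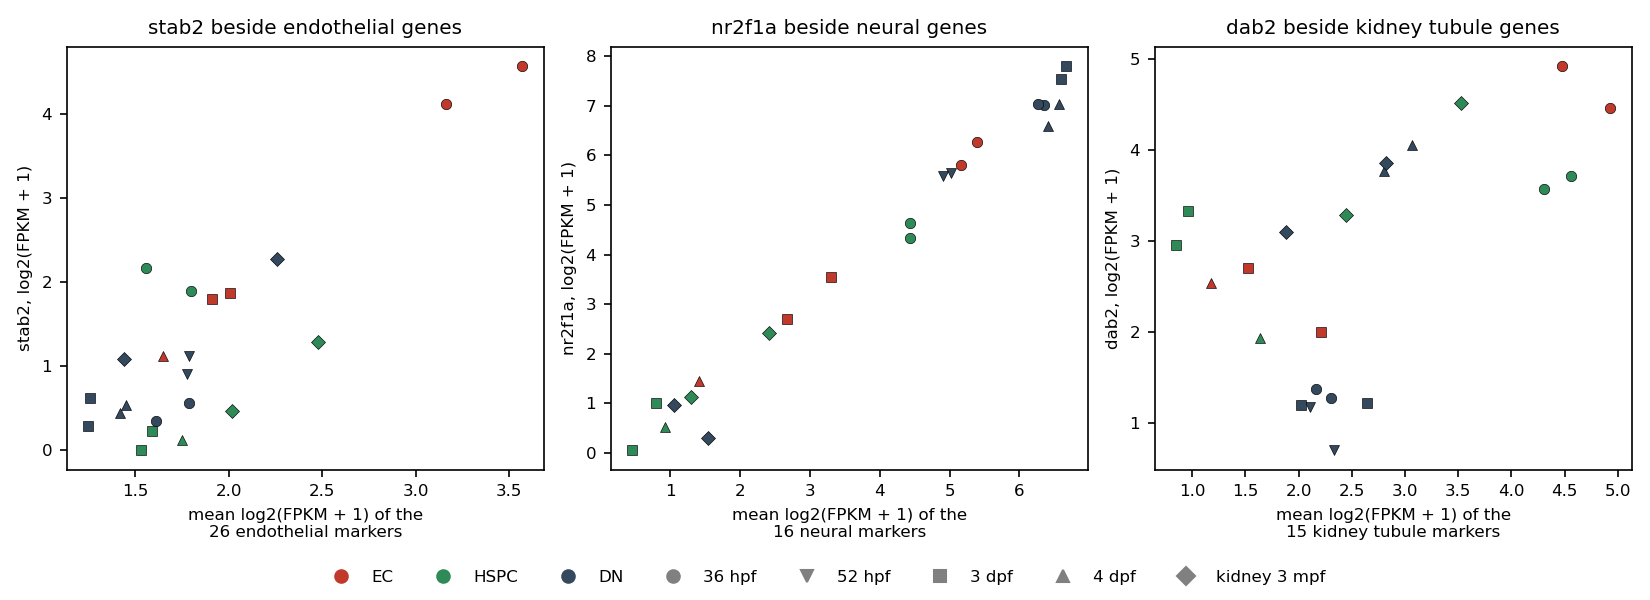
stab2, nr2f1a and dab2 beside marker lists. Each point is 1 of the 22 fitted libraries, the horizontal axis is the mean log2(FPKM + 1) of 26 endothelial, 16 neural or 15 kidney tubule markers, the vertical axis is log2(FPKM + 1) of stab2, nr2f1a or dab2, colours are sorts and shapes stages. Both EC libraries of 36 hpf stand apart at the top right of the stab2 panel, and in the nr2f1a panel the points run from HSPC of 3 dpf at the lower left to DN of 3 dpf at the upper right.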

How the data were processed

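Poly(A) RNA of sorted cells was isolated with RNeasy columns and made into NEBNext Ultra libraries, per the labels' protocols. The authors deposited 1 table of FPKM, a level per gene length and library size. Tools named in the submitters' processing notes are FastQC, HISAT, HTSeq and DESeq2, with GRCz10 as genome build and no version. The authors' filter on genes is not stated. Near-identical genes may share reads.

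The 9 genes, the gene lists and the comparisons were chosen with earlier results of these data known. limma 3.58.1 in R 4.3.3 (functions lmFit, contrasts.fit and eBayes, with an intensity trend) modelled log2(FPKM + 1) of 22 libraries by 12 group means, keeping genes that reached 1 FPKM in 2 or more of them and leaving 10 residual degrees of freedom. Replicate 2 of EC and of HSPC at 4 dpf was left out. p-values were adjusted by Benjamini-Hochberg over 20970 genes in each of 14 comparisons, two-sided. A positive value means that the first-named group was higher.

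Read numbers were recovered from the steps of the FPKM values: of 23718 genes present in 3 or more libraries, 23718 had whole reads (tolerance 0.01 reads). For genes present in few libraries the tolerance can be met without the true reads, so this count does not show that theirs are right. The recovered reads set the 95% exact Poisson intervals, which cover counting error only, and the limma-voom alternative. No upper limit was computed where a gene had no read in a library. Both the fit and the recovery were tested on simulated data. For EC minus DN at 36 hpf the fit called 33.8% of simulated 2-fold, 98.6% of 4-fold and 100% of 8-fold changes. It also called 5 unchanged genes. The changed genes were drawn from those with many simulated reads, and all genes were given the same spread between replicates. These rates therefore do not cover genes with few reads, such as lyve1b and stab1. A real change near 2-fold can fail to pass, and for genes with few reads a larger change can too.

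All 9 genes are described. Of 13 other lists, up to 4 called genes of largest change with at least 1 FPKM were eligible to be named per EC comparison. The genes kdrl and itga2b, gene copies and defining markers were added after their values were seen. Genes most alike were the 3 with the highest Pearson r among genes with a group mean of at least 5 FPKM. Alternatives were all 24 libraries, a pseudocount of 0.1, no filter, a replicate block, median-of-ratios scaling, only the groups compared, voom and leaving out each library. The fit without kidney libraries was chosen after seeing the data. Python 3.11.15 and matplotlib 3.10.9 drew the figures. Coordinates and sequences were not used here.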

Additional observations from a re-analysis of the deposited data

Results flagged for a closer look

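The difference between EC and DN libraries itself differed between 36 hpf and 3 dpf, by a limma interaction term on the log2(FPKM + 1) scale, for nr2f1a (3.56), nr2f2 (3.07), stab2 (2.50) and dab2 (2.23). The EC-labelled libraries at 3 dpf held kdrl at 0.333 and 0.323 FPKM and itga2b at 6.55 and 5.72 FPKM, so this is a difference between labels. Summed macrophage FPKM in the EC label was 61.0 and 81.5 at 36 hpf and 164.1 and 180.2 at 3 dpf. Summed neutrophil FPKM there was 2468 and 3919 at 36 hpf and 12430 and 11490 at 3 dpf. In the interaction macrophage and neutrophil markers were called only opposite to these 4 genes, in 1 of 20 and 2 of 12. Neural and kidney tubule markers were called in the same direction as the 4 genes, in 13 of 16 and 11 of 15. Endothelial markers were called in that direction in 7 and in the other in 2 of 24. The part of these cells was not tested.

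In 4 dpf libraries that entered no comparison, some uptake receptor genes were above the DN libraries of that stage and others were not. In replicate 1 of the EC-labelled libraries at 4 dpf stab1 was at 0.975 FPKM, stab2 at 1.18 FPKM and mrc1a at 1.84 FPKM, and in DN of 4 dpf the highest values were 0.206, 0.459 and 0 FPKM. lyve1b went the other way, at 0.595 FPKM against 1.39 and 1.63 FPKM in DN. In replicate 1 of HSPC at 4 dpf mrc1a was at 0.441 FPKM, above DN, while stab1 (0.0991 FPKM), stab2 (0.0945 FPKM) and lyve1b (0 FPKM) were below it, and replicate 2 of both sorts was at 0 for all 4 genes. marco was at 21.7 FPKM and cdh5 at 0.178 FPKM in the same EC library, and neither part was tested.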

How the results depend on the processing

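Each count of called genes among the 9 was recomputed under 9 kinds of alternative. With the replicate number as a block, 62 of 62 results for single genes and all counts kept their side of the threshold, for example 5 genes for EC minus DN at 36 hpf. Deviations of same-numbered libraries correlated at -0.339 to 0.269 over 45 pairs of groups, with 2 above 0.1. These pairs mix stages and tissues, and sorts of the same stage were not examined apart. Whether equal numbers share a sorting run therefore stays unknown. Of 62 results for single genes 47 were unchanged in direction and call with all 24 libraries, 44 with a pseudocount of 0.1, 60 with no filter, 59 with median-of-ratios scaling and 49 by limma-voom on recovered reads, and 50 of 61 with only the groups compared, 53 of 56 without the kidney libraries (chosen after seeing the data) and 216 of 284 leaving out 1 library. Reversals were seen for lyve1b in the change of EC minus DN between the stages (0.58), at -0.19 by voom and -0.02 without replicate 1 of EC at 3 dpf (1.17 without replicate 2). Counts that moved are given next, and the cause was not tested. For HSPC minus EC at 36 hpf the count of 3 became 0 with a pseudocount of 0.1 and 7 with only the groups compared or without the kidney libraries. For HSPC minus EC at 3 dpf the 2 became 0 with all 24 libraries or only the groups compared, 4 with a pseudocount of 0.1 or voom and 5 without the kidney. HSPC minus DN at 36 hpf went from 4 to 2 with all 24 libraries, and EC 3 dpf minus 36 hpf from 7 to 4 with a pseudocount of 0.1. In DN, 52 minus 36 hpf went from 1 to 0 with all 24 libraries, a pseudocount of 0.1, no filter or median-of-ratios scaling and to 2 with only the groups compared or without the kidney. DN 3 dpf minus 52 hpf went from 2 to 1 with all 24 libraries and 0 with a pseudocount of 0.1, and DN 4 minus 3 dpf from 1 to 0 with all 24 libraries or voom. Kidney HSPC minus DN went from 0 to 1 with median-of-ratios scaling, and kidney DN minus DN 4 dpf from 6 to 3 with only the groups compared. The change of EC minus DN went from 4 to 2 with all 24 libraries or voom, 0 with a pseudocount of 0.1 and 7 with only the groups compared.

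Leaving out 1 library, counts ranged from 3 to 4 for EC minus DN at 36 hpf, 5 to 6 at 3 dpf, 0 to 3 for HSPC minus EC at 36 hpf, 1 to 2 at 3 dpf, 3 to 4 for HSPC minus DN at 36 hpf and 4 to 5 at 3 dpf. They ranged from 4 to 7 for EC and 2 to 5 for HSPC between the stages, 0 to 0, 1 to 2 and 0 to 1 for the 3 DN steps, 0 to 2 for kidney HSPC minus DN, 2 to 6 for kidney DN minus DN 4 dpf and 2 to 5 for the change of EC minus DN. Calls over all genes moved more: EC minus DN at 36 hpf went from 2344 to 700 with all 24 libraries and 4505 with only the groups compared, HSPC minus EC at 36 hpf from 699 to 286 and 2276, and DN 4 minus 3 dpf from 304 to 42 and 174. Read depth limits lyve1b most, with 0 to 67 reads per library.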

Other observations

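nr2f2 was at 65.7 FPKM in replicate 2 of the EC-labelled libraries at 4 dpf, from 490 reads, in a library with 2483 genes above 0 in which the other 8 of the 9 genes were listed at 0. Replicate 1 of that group held 1.17 FPKM from 78 reads. In replicate 2 of HSPC at 4 dpf, with 11265 genes above 0, dab2 was at 11.4 FPKM, prox1a at 5.63 FPKM and ephb4a at 1.85 FPKM, and the other 6 genes were listed at 0.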
